A study of Bos taurus with 11 samples.

Results

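The miR-22 hairpin was described here by both of its mature arms, bta-miR-22-5p and bta-miR-22-3p, together with bta-miR-3600, a separately named miRNA that was counted from the same reads as bta-miR-22-3p. The members were taken by the equality of their identifiers with those in the count table, without regard to their values. All 3 were found among 796 miRNAs of the table, and they counted as 2 once bta-miR-22-3p and bta-miR-3600 were taken as 1. All 3 passed the filter on low counts, which kept 550 miRNAs with at least 10 reads over the libraries.

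Small RNA from mammary gland biopsies of lactating dairy cows was sequenced in 11 libraries, of which 5 came from Holstein and 6 from Montbéliarde cows. Each library was made from 1 cow, all cows were in mid-lactation and received the same diet, and their ages are not given in the sample records. The study asked whether the mammary miRNAs of both breeds differ, since the breeds differ in dairy performance. Libraries are named here by breed and by the tag in the sample records, CNLX1 to CNLX9 for Holstein and CNLX13 to CNLX23 for Montbéliarde. The tag numbers of the breeds do not interleave, so any order they may stand for cannot be told apart from breed. A biopsy holds several cell types, and fewer cells of a type and less RNA per cell cannot be told apart in such samples.

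A miRNA hairpin is cut by Dicer into a duplex, from which 1 arm is usually kept in an Argonaute protein as the guide, whereas the other arm, the passenger, is mostly degraded. The guide of the miR-22 hairpin is the 3p arm, which is widely expressed among tissues. In other systems it is known to repress the oestrogen receptor gene ESR1 and the TET genes, whose products oxidize methylated cytosine. Through the TET genes it has been linked to silencing of the miR-200 family, which maintains the epithelial state, and to mammary stem cell properties. In the RefSeq gene table of the assembly ARS-UCD2.0, which is not the assembly the authors used, MIR22 lies on chromosome 19 inside TLCD2, and MIR3600 lies inside MIR22. The neighbouring genes are PRPF8 and WDR81, and no miRNA gene other than MIR3600 lies within 50000 bases.

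The rows of bta-miR-22-3p and bta-miR-3600 were nearly the same in each library. The count of miR-22-3p divided by that of miR-3600 stayed between 0.999788 and 0.999902 over the 11 libraries. In the Holstein libraries CNLX1, CNLX3, CNLX5, CNLX7 and CNLX9, miR-3600 exceeded miR-22-3p by 13, 17, 22, 32 and 23 reads. In the Montbéliarde libraries the excess had a lowest value of 13, a median of 16 and a highest value of 20 reads. The excess was always on the side of miR-3600 and made up between 0.00976 and 0.0212% of the miR-22-3p count. The table therefore held 1 signal under both names, and it is given below as miR-22-3p.

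The 3p arm, miR-22-3p, was among the most abundant miRNAs of the mammary biopsies. In the Holstein libraries CNLX1, CNLX3, CNLX5, CNLX7 and CNLX9 it had normalized read counts of 116974, 109152, 84169, 122308 and 169272, where a normalized read count is the count divided by the size factor of the library. In the Montbéliarde libraries the lowest value was 85718, the median 103692 and the highest 132100. The breeds overlapped: CNLX9 stood above all other libraries, and the lowest value of all was also Holstein, in CNLX5. The Holstein mean was 120375 ± 30996 (SD, n = 5), against 105228 ± 16076 (SD, n = 6) for Montbéliarde cows. Below the Holstein mean lay 5 of 6 Montbéliarde libraries, but also the Holstein libraries CNLX1, CNLX3 and CNLX5.

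The 5p arm, miR-22-5p, was present in every library at a far lower level. Its normalized read counts in CNLX1, CNLX3, CNLX5, CNLX7 and CNLX9 were 115, 131, 118, 137 and 164. In the Montbéliarde libraries the lowest value was 96.7, the median 123 and the highest 198. Here too the breeds overlapped, and both the lowest library, CNLX13, and the highest, CNLX23, were Montbéliarde. The means were nearly equal, at 133 ± 19.6 (SD, n = 5) for Holstein against 133 ± 36.5 (SD, n = 6) for Montbéliarde cows. Behind these values stood 58 reads in CNLX13 and 252 reads in CNLX23, for which the exact Poisson 95% intervals were 44.0 to 75.0 and 222 to 285 reads. These intervals cover counting error only.

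**Figure D1:**
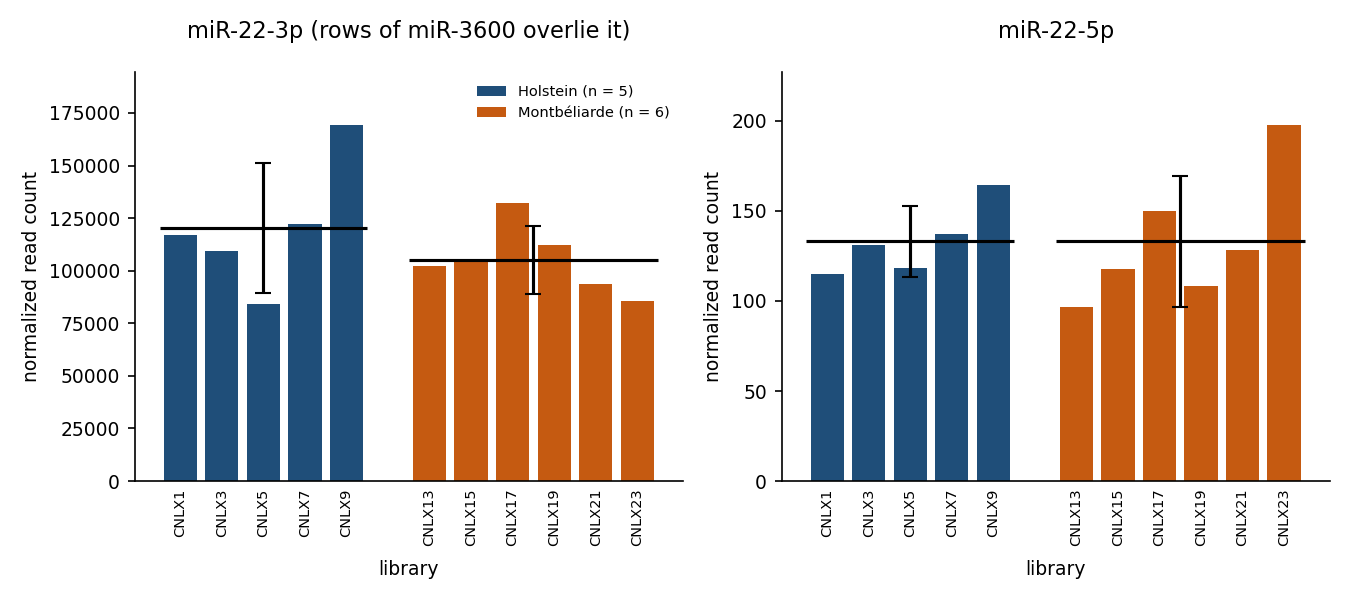
Normalized read count (vertical axis, from 0) of miR-22-3p (left) and miR-22-5p (right) in each library, 5 Holstein (blue) and 6 Montbéliarde (orange); horizontal lines are breed means and error bars are SD. In both panels the breeds overlap: CNLX9 is highest for miR-22-3p at 169272, and CNLX23 is highest for miR-22-5p at 198.

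As a share of all counted reads, miR-22-3p took 1.24% in CNLX1, 1.01% in CNLX3, 0.830% in CNLX5, 1.38% in CNLX7 and 1.75% in CNLX9. The total is the sum over all rows, so reads shared between rows, as by miR-22-3p and miR-3600, entered it repeatedly. In Montbéliarde cows the share had a lowest value of 0.923%, a median of 1.02% and a highest value of 1.28%. The breed means were 1.24% ± 0.353 (SD, n = 5) and 1.07% ± 0.141 (SD, n = 6), and the difference of -0.170 percentage points did not pass the test (exact permutation test, two-sided, p = 0.325). Counting error was small against this spread: the Wilson 95% interval of the highest share, in CNLX9, ran from 1.74 to 1.76%. The most abundant miRNA, miR-143, which marks smooth muscle and fibroblasts, took a varying share of the reads. With miR-143 left out of the total, the breed means of miR-22-3p were 1.53% ± 0.433 and 1.48% ± 0.186, and the difference shrank to -0.0438 percentage points (exact permutation test, two-sided, p = 0.818). With miR-143 kept and rows that share reads counted once, the breed means were 1.30% ± 0.371 and 1.13% ± 0.143. The difference was then -0.178 percentage points (exact permutation test, two-sided, p = 0.325).

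The share of miR-22-5p was 0.00137% ± 0.000238 (SD, n = 5) for Holstein against 0.00139% ± 0.000521 (SD, n = 6) for Montbéliarde cows. The shares of 10 libraries lay between 0.000953 and 0.00170%, and CNLX23 stood apart at 0.00239%. The difference between breeds of 1.8e-05 percentage points did not pass the test (exact permutation test, two-sided, p = 0.972). With miR-143 left out of the total it was 0.000225 percentage points (exact permutation test, two-sided, p = 0.578). The smallest p that 5 against 6 libraries allow is 0.00216.

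In the order of levels, with miRNAs that share reads taken once, miR-22-3p ranked 14th of 783 by its mean, and between 13th and 17th in single libraries. Directly above it stood let-7f, a member of the let-7 family, with a mean normalized read count of 132277 and the higher value in 9 of 11 libraries. Directly below it stood miR-191, with a mean of 112080 and the higher value in 6 of 11 libraries. The values of both neighbours overlapped with those of miR-22-3p, and neither neighbour stood on the same side of it in all libraries. No paired test of these places in the order was made. By contrast, miR-22-5p ranked 194th by its mean and between 175th and 202nd in single libraries. Its neighbours were miR-1298, whose values ran from 1.25 to 834 with a mean of 136, and miR-504, whose values ran from 47.4 to 332 with a mean of 126. Both of these overlapped with miR-22-5p as well, and both spread far more widely than it did.

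Both arms were fairly even among cows. On the log2 scale the SD over the 11 libraries was 0.29 for each arm, against a median of 0.39 over 207 miRNAs with a mean normalized read count of at least 100, and the arms ranked 60th and 61st from the least variable. The coefficient of variation was 21.4% for miR-22-3p and 21.5% for miR-22-5p. Counting error alone would give 0.295% for miR-22-3p and 8.41% for miR-22-5p.

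The difference between the breeds was tested in a fit across all 550 miRNAs. Of these, 2 had an adjusted p of at most 0.05 in edgeR's quasi-likelihood test after the Benjamini-Hochberg correction, 0.364% of those tested, whereas 0 of the 3 members did. Without adjustment, p was at most 0.05 for 0 members, against 78 of all miRNAs. DESeq2 called 22 and limma-voom 2 of the 550 miRNAs, and both called 0 members. With so few calls in all, 0 among 3 members, of which miR-22-3p and miR-3600 are 1 signal, does not set them apart. For 11 of the 550 miRNAs, 2%, the normalized read counts of the breeds did not overlap, and none of the 3 members was among them. The log2 fold change of miR-22-3p, Montbéliarde over Holstein, was -0.20 (SE 0.17, 95% interval -0.57 to 0.17), with an adjusted p of 0.627 in edgeR's quasi-likelihood test. As a ratio this was 0.869, with an interval from 0.673 to 1.12. For miR-3600 the log2 fold change was also -0.20, with the same adjusted p. The estimate of miR-22-3p rested in part on CNLX9, without which it was -0.06.

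For miR-22-5p the log2 fold change was -0.00414 (SE 0.21, 95% interval -0.45 to 0.45), with an adjusted p of 0.997 in edgeR's quasi-likelihood test. The ratio was 0.997, with an interval from 0.730 to 1.36. The sign of so small a value was not fixed: it turned positive under 4 alternatives of tool, scaling or filter and without any 1 of 9 libraries, whereas without CNLX23 it was -0.16. Across all tested miRNAs the median log2 fold change was 0.03, with 288 positive and 262 negative values.

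**Figure D2:**
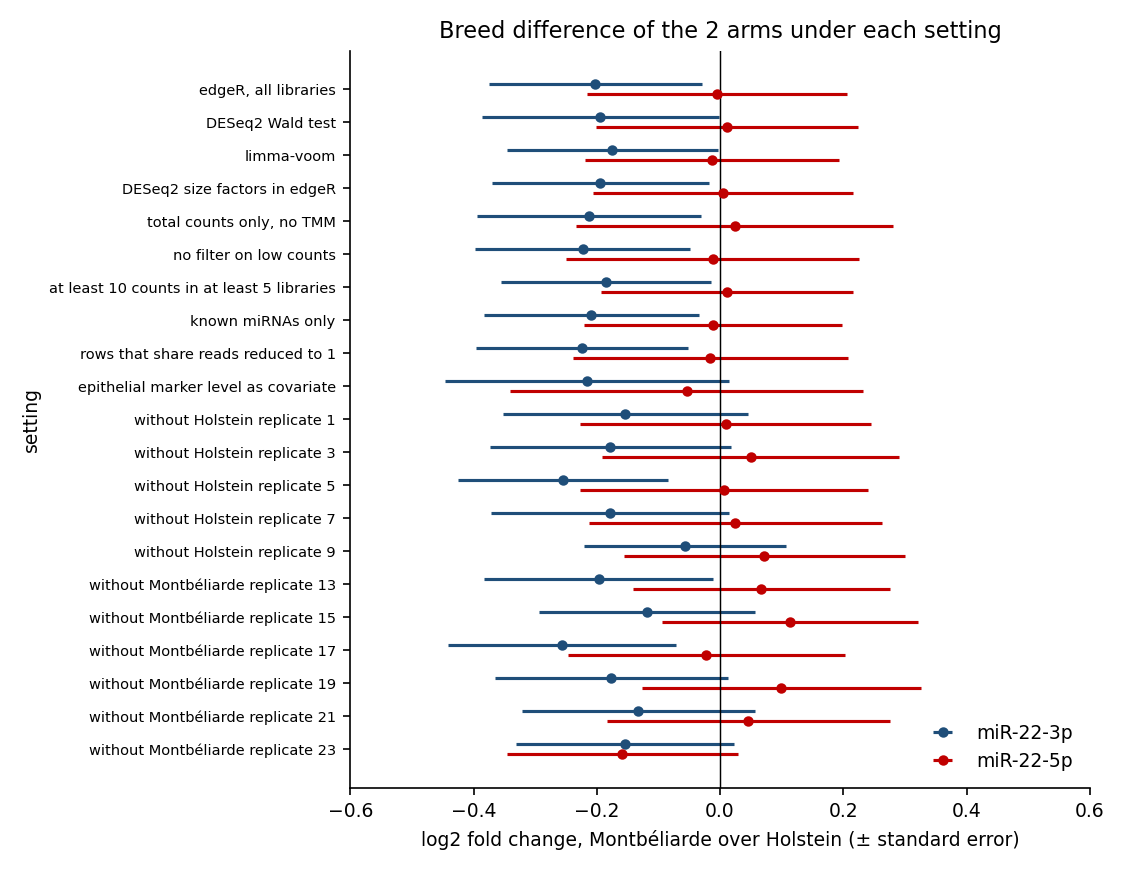
Log2 fold change, Montbéliarde over Holstein (horizontal axis), of miR-22-3p (blue) and miR-22-5p (red) in the edgeR fit of all libraries (top) and under each alternative, with error bars of 1 standard error. All values of miR-22-3p lie below 0, the nearest being -0.06 without CNLX9, whereas those of miR-22-5p lie on both sides of 0, between -0.16 and 0.11.

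The ratio of the arms needs no scaling between libraries. For each read of miR-22-5p there were 1017, 833, 712, 892 and 1031 reads of miR-22-3p in CNLX1, CNLX3, CNLX5, CNLX7 and CNLX9. In the Montbéliarde libraries the lowest ratio was 434, the median 888 and the highest 1055. The lowest ratio, in CNLX23, stood apart from the others, which were all between 712 and 1055, and the breeds overlapped. The mean log2 ratio was 9.80 ± 0.22 (SD, n = 5) for Holstein against 9.65 ± 0.48 (SD, n = 6) for Montbéliarde cows. The difference of -0.14 did not pass the test (exact permutation test, two-sided, p = 0.677), and without CNLX23 it was 0.04.

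Seen as the share of the 5p arm among the reads of both arms, CNLX23 held 0.230%, with a Wilson 95% interval from 0.203 to 0.260%. The next highest library, CNLX5, held 0.140%, with an interval from 0.122 to 0.161%, so that both intervals did not overlap. In the remaining libraries the share was between 0.0947 and 0.137%. The library CNLX23 combined the second lowest level of miR-22-3p with the highest level of miR-22-5p. It also had the lowest summed levels of the endothelial (239684), leukocyte (17229) and skeletal muscle (473) marker miRNAs among the 11 libraries. Its sum for smooth muscle and fibroblasts, 1926890, was the lowest of its breed. Its epithelial sum, 268794, and its erythrocyte sum, 38272, were inside the Montbéliarde range. Nearly as low were the leukocyte sum of CNLX19, 17523, and the endothelial sum of CNLX9, 251466, in libraries with arm ratios of 1036 and 1031. The part of the marker levels in the ratio was not tested.

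**Figure D3:**
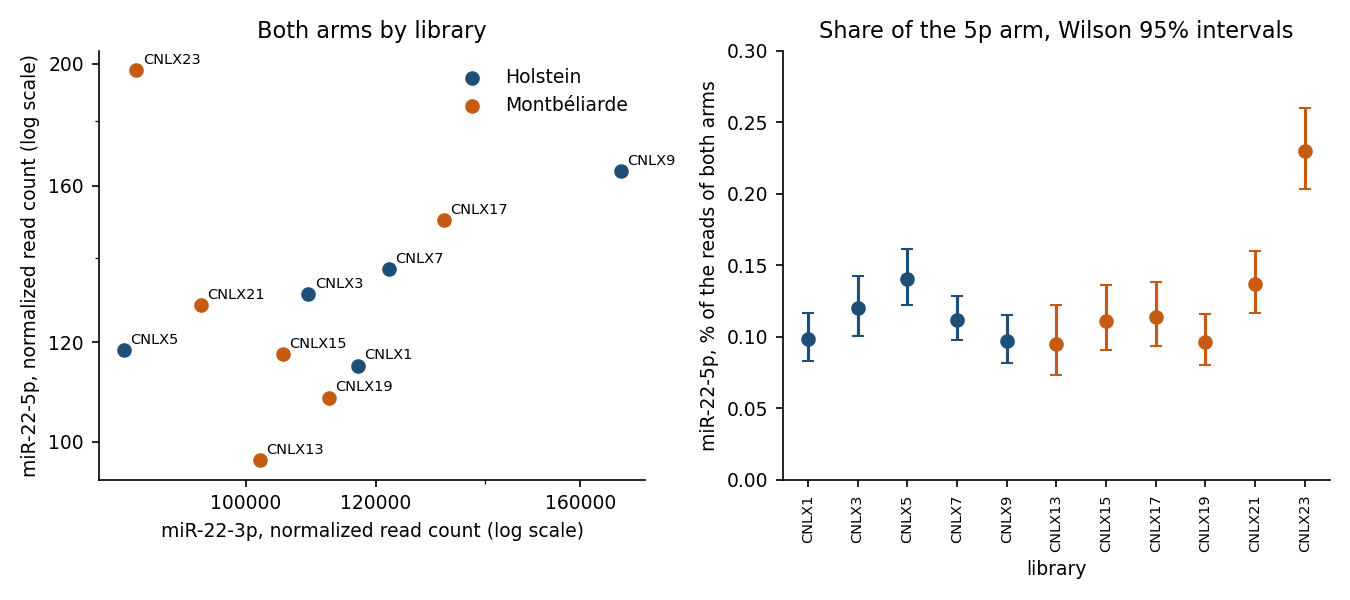
Left, normalized read counts of miR-22-3p (horizontal, log scale) and miR-22-5p (vertical, log scale) in each library. Right, percent of the reads of both arms that belong to miR-22-5p, with Wilson 95% intervals for counting error. CNLX23 lies alone at the upper left of the first panel and at 0.230% in the second, above the other libraries, which reach at most 0.140%.

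Both arms were compared across the cows to see whether they varied together. Over the 11 libraries Pearson's r of the log2 values was 0.17 (permutation test, p = 0.607) and Spearman's rho was 0.23 (permutation test, p = 0.506). Without CNLX23, r was 0.68 (permutation test, p = 0.0290) and rho 0.56 (permutation test, p = 0.0950) over 10 libraries. Without CNLX9, r was -0.14, and without the 2 libraries farthest from the median of miR-22-3p it was -0.26 (exact permutation test, p = 0.506, n = 9). Within the Montbéliarde libraries r was -0.29 (exact permutation test, p = 0.578, n = 6) and rho -0.26 (exact permutation test, p = 0.658, n = 6), and no coefficient was computed for the 5 Holstein libraries, since 6 was the minimum set for a correlation. Among those 5, CNLX9 was highest and CNLX7 next highest in both arms. The coefficient over all libraries thus changed with single libraries.

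The imbalance of the miR-22 arms was set beside other hairpins. A total of 63 hairpins had named 5p and 3p rows, and 23 of them had a mean normalized read count of at least 10 in both arms. This minimum leaves out hairpins whose less abundant arm was nearly absent, and hairpins without named rows for both arms did not enter. The median and the ranks below therefore hold only among the 23 hairpins. Among them, the median ratio of the more to the less abundant arm was 3.92, and 5 hairpins had a ratio of at least 100. The hairpin miR-22 ranked second with 842, and its ratio ranged from 434 to 1055 in single libraries. Above it stood let-7a with a ratio of 876, ranging from 454 to 1591, and below it miR-27a with 389, ranging from 316 to 478. The ranges of miR-22 and let-7a overlapped, and that of miR-27a overlapped with miR-22 in CNLX23 only. The other hairpins past 100 were miR-21 with 141 and miR-99a with 128. The 3p arm was the more abundant in 10 of the 23 hairpins, miR-22 and miR-27a among them, and the 5p arm in 13. Across libraries the log2 ratio of miR-22 had an SD of 0.37, the sixth smallest of the 23 hairpins.

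**Figure D4:**
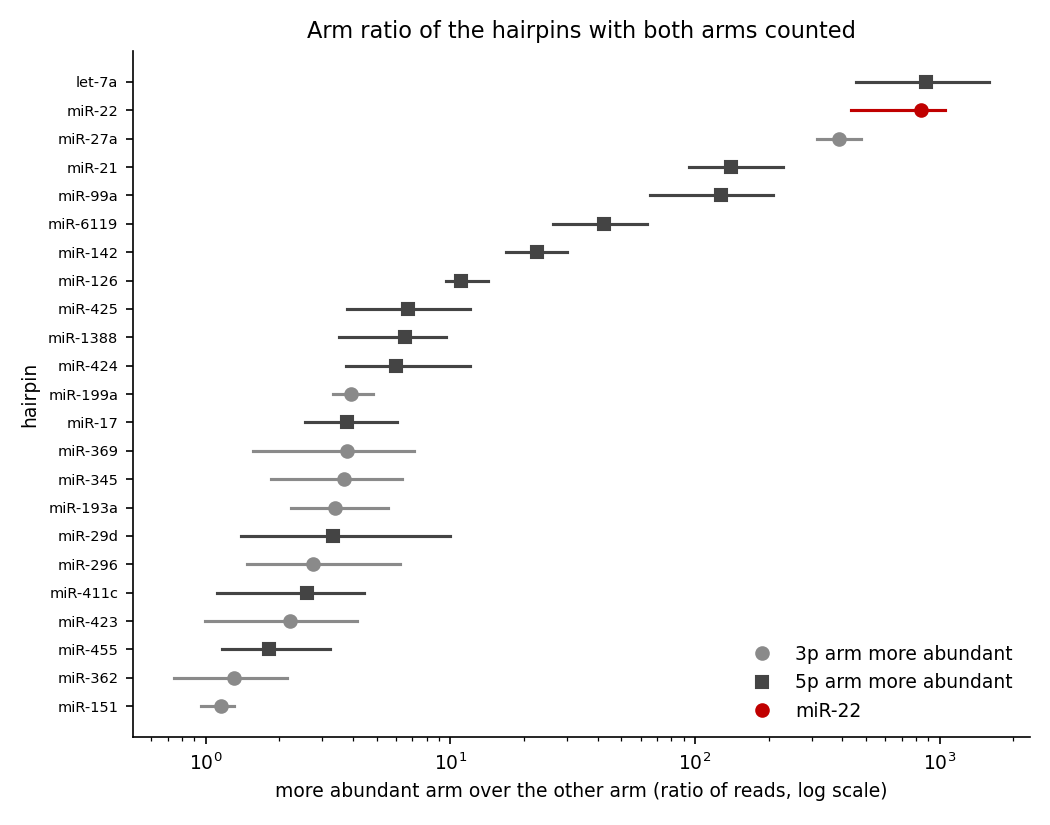
Ratio of the more abundant to the less abundant arm (horizontal axis, log scale) for the 23 hairpins with a mean normalized read count of at least 10 in both arms. Points are ratios of mean normalized read counts, and lines run from the lowest to the highest library. The miR-22 hairpin (red) lies second at 842, next to let-7a at 876 and above miR-27a at 389, whereas the median hairpin lies at 3.92.

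The 3 internal controls that the study used for its RT-qPCR, miR-26a, miR-92a and miR-191, gave another base for the level of the arms. Over the mean log2 level of these controls, miR-22-3p stood at -0.28, -0.50, -0.86, -0.16 and 0.27 in CNLX1, CNLX3, CNLX5, CNLX7 and CNLX9. In Montbéliarde cows the lowest value was -0.97, the median -0.51 and the highest -0.06. The breeds overlapped, with means of -0.31 ± 0.42 (SD, n = 5) and -0.45 ± 0.33 (SD, n = 6), and the difference of -0.15 did not pass the test (exact permutation test, two-sided, p = 0.522). Without CNLX9 this difference was -0.00314, and without CNLX15 it was -0.0452. For miR-22-5p the difference was -0.00671 (exact permutation test, two-sided, p = 0.983).

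The difference of miR-22-3p depended on which control was used. Over miR-92a alone it was -0.47, with log2 values of 1.20 to 1.80 for Holstein against 0.78 to 1.40 for Montbéliarde cows (exact permutation test, two-sided, p = 0.0130). Adjusted over the 8 comparisons of both arms with the mean of the controls and with each control, this p was 0.104. Over miR-26a alone the difference was -0.24 (exact permutation test, two-sided, p = 0.502), and over miR-191 alone it was 0.27, in the opposite direction (exact permutation test, two-sided, p = 0.381). For miR-22-5p the differences were -0.33 over miR-92a, -0.10 over miR-26a and 0.41 over miR-191, with adjusted p between 0.670 and 0.928 in the same exact permutation tests. The controls themselves had log2 fold changes of 0.14 for miR-26a, 0.30 for miR-92a and -0.40 for miR-191. None of the 3 passed edgeR's quasi-likelihood test, with adjusted p of 0.819, 0.348 and 0.348. The count of miR-26a was in a nearly constant ratio to that of miR-26c, so these rows share reads and the absolute level of miR-26a is uncertain. The log2 fold change of miR-26c was also 0.14, so the breed difference does not depend on which of these rows is used.

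**Figure D5:**
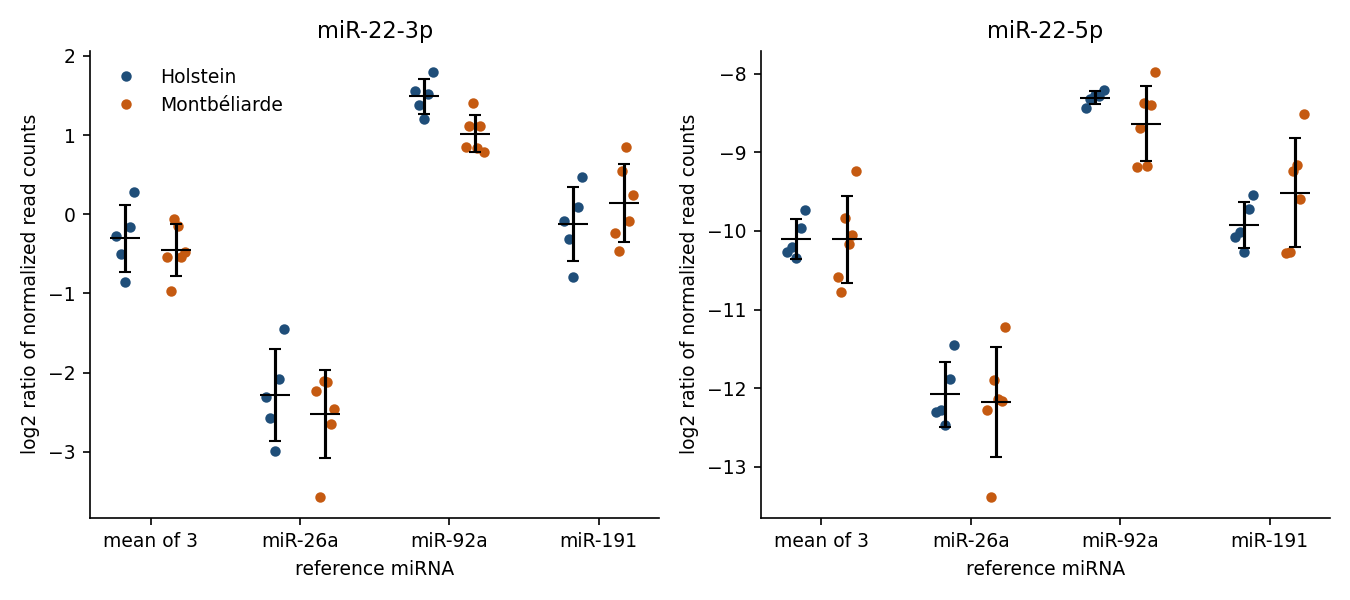
Log2 ratio of the normalized read count of miR-22-3p (left) and miR-22-5p (right) to the mean of 3 internal control miRNAs and to each control alone; points are libraries (Holstein blue, Montbéliarde orange), horizontal lines are means and error bars SD. The breed difference of miR-22-3p is -0.47 over miR-92a and 0.27 over miR-191, and the breeds overlap over each control.

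Marker miRNAs of the cells that a biopsy can hold were summed in each library. The epithelial markers, 5 miRNAs of the miR-200 family with which miR-22 has been linked, were detected in every library and had Holstein sums of 347931 to 445509 and Montbéliarde sums of 152474 to 450174 (log2 difference -0.75, exact permutation test, two-sided, p = 0.0325). Their sum consisted mostly of miR-141, with a mean of 310902 of 396113 in Holstein and 188093 of 253088 in Montbéliarde cows. All 5 had negative log2 fold changes, led by miR-141 with -0.74 (adjusted p = 0.217) and miR-200c with -0.61 (adjusted p = 0.322). The value was -0.33 for miR-429, whereas miR-200b with -0.10 and miR-200a with -0.04 hardly differed between the breeds. Of the 5, 0 passed edgeR's quasi-likelihood test or were called by DESeq2 or limma-voom, while 2 had p of at most 0.05 before adjustment. Over all 550 miRNAs, 262 log2 fold changes were negative, 78 had p of at most 0.05 before adjustment, and DESeq2 called 22. The median log2 fold change of the epithelial list was -0.33, against 0.03 over all tested miRNAs. The 5 markers of smooth muscle and fibroblasts, detected in every library, had Holstein sums of 1511910 to 2303540 and Montbéliarde sums of 1926890 to 3866930 (log2 difference 0.56, exact permutation test, two-sided, p = 0.0195). Their sum consisted mostly of miR-143, which had a log2 fold change of 0.58 (adjusted p = 0.171 in edgeR's quasi-likelihood test), whereas miR-145 went the other way with -0.27 (adjusted p = 0.649). Of the 5, 4 had positive values, 2 had p of at most 0.05 before adjustment, and 0 were called by edgeR, DESeq2 or limma-voom. The sums of the endothelial, leukocyte, erythrocyte and skeletal muscle markers differed by -0.05, 0.17, 0.13 and 0.16 on the log2 scale (exact permutation tests, two-sided, p between 0.500 and 0.697). Of these lists all members in the table were detected in every library. The p-values of the marker sums were not adjusted over the lists. The part of the cell makeup in the levels of the arms was not tested apart from the correlations that follow and a fit with the epithelial level as covariate. In that edgeR fit the log2 fold change of miR-22-3p was -0.22 (SE 0.23, adjusted p = 0.905 in the quasi-likelihood test). That of miR-22-5p was -0.05 (SE 0.29, adjusted p = 0.992 in the same test). The epithelial sum was itself lower on average in Montbéliarde cows, so this fit cannot fully separate it from breed.

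Neither arm followed any marker list past the adjustment for 12 relations. The levels of miR-22-3p had an r of 0.25 with the epithelial sum (permutation test, p = 0.468, adjusted p = 0.879) and a rho of 0.25 (permutation test, p = 0.468). Without the 2 libraries farthest from the median of the sum, r was 0.08. For miR-22-5p the largest values were an r of -0.60 with the endothelial sum (permutation test, p = 0.0502, adjusted p = 0.560; rho -0.65, permutation p = 0.0361, adjusted p = 0.433) and an r of -0.53 with the leukocyte sum (permutation test, p = 0.0933, adjusted p = 0.560; rho -0.45, permutation p = 0.166, adjusted p = 0.853). Without the 2 farthest libraries these were -0.56 and -0.61. With the mean of the members on the log2 scale in place of the sum they were -0.26 and -0.21, and the largest value was then the r of 0.57 with the erythrocyte markers (permutation test, p = 0.0661, adjusted p = 0.793), which was 0.12 with the sum. The adjusted p of all 12 relations lay between 0.560 and 0.930 (permutation tests of r).

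The miRNAs whose levels were most like those of the arms over the 11 libraries were sought among 205 miRNAs with a mean normalized read count of at least 100. For miR-22-3p these were miR-425-5p (r = 0.81, rho = 0.83), miR-423-3p (r = 0.76, rho = 0.68) and miR-15a (r = 0.71, rho = 0.57). Without the 2 libraries farthest from the median of miR-22-3p, their r was 0.75, 0.64 and 0.65. For miR-22-5p they were miR-326 (r = 0.74, rho = 0.66), miR-365-3p (r = 0.74, rho = 0.71) and miR-423-5p (r = 0.73, rho = 0.69). Without the 2 libraries farthest from the median of miR-22-5p, r was 0.21 for miR-326, 0.38 for miR-365-3p and 0.92 for miR-423-5p. No miRNA stood in both sets, although the 2 arms of the miR-423 hairpin appeared on opposite sides, the 3p arm with miR-22-3p and the 5p arm with miR-22-5p. The 11 points share their libraries and scaling factors, and these values are a description of the likeness only.

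Other miRNAs known to repress a target of miR-22, the oestrogen receptor gene ESR1, were examined as a list. Of 6 such miRNAs, 5 were found and tested, while miR-206 was not analysed here. Of these, 0 passed edgeR's quasi-likelihood test or were called by DESeq2 or limma-voom, and 1 of the 5 had p of at most 0.05 before adjustment, against 78 of all 550 miRNAs. Over all 550, edgeR called 2, DESeq2 22 and limma-voom 2. The log2 fold changes were positive for 4 and negative for 1, with a median of 0.27 against 0.03 over all tested miRNAs. The list's most abundant member, miR-221, the cluster partner of miR-222, had a log2 fold change of 0.63 and the lowest adjusted p, 0.309, in edgeR's quasi-likelihood test.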

How the data were processed

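The authors trimmed adaptors, filtered reads by length and used ncPRO-seq and miRDeep2, the bovine assembly btau5.0.1 and miRBase for quantification. They deposited raw counts per mature miRNA and library, for 780 known and 16 predicted miRNAs. How reads matching several miRNAs were counted is not given in the sources used here. The authors also deposited a signal, the normalized read count, which is the count divided by a DESeq2 size factor, and its means per breed. Their deposited log2 fold changes, p-values and adjusted p-values between breeds were not used. The submitters' processing notes name bcl2fastq 2.17.1.14 and DESeq2 1.18.1.

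Counted reads per library, summed over all rows with shared reads entering repeatedly, ranged from 6087865 to 16808976. Counting error was thus small for miR-22-3p but not for miR-22-5p. PCR copies cannot be told apart, so intervals cover counting error only. In 13 pairs of rows, counts were equal or in a ratio constant within 2%, and these were taken once for ranks and likeness.

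For the breed comparison, edgeR 4.0.16 was run under R 4.3.3 (TMM, glmQLFit with robust fitting, glmQLFTest) on counts of miRNAs with at least 10 reads over all libraries, with Benjamini-Hochberg adjustment and a limit of 0.05. The standard error was derived from the fold change and F. DESeq2 1.42.0 and limma 3.58.1 were alternatives. The fits and the permutation tests were tested on simulated data. Levels on the log2 scale had 1 added, except for levels over the internal controls, log2 shares and log2 arm ratios. Measures with 1 value per library had exact permutation tests over all 462 divisions into 5 and 6, with the difference in means. Correlations over 10 or more libraries had 100000 resamples (numpy 2.4.6). The Wilson and Poisson intervals were computed with scipy 1.17.1. With 1 library per cow, p-values measure the spread between cows.

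Named were the members, the internal controls, the 3 most alike miRNAs per arm, the neighbours in level, the hairpins with the largest arm ratios, and from the list of ESR1 repressors the most abundant member and that with the lowest adjusted p. The miRNAs miR-141, miR-143, miR-145, miR-200a, miR-200b, miR-200c and miR-429 were added after their values were seen. Another list is not reported here. miRNAs with the same seed were not examined, as no sequences were used here. Members and lists were chosen with earlier results of these data known.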

Additional observations from a re-analysis of the deposited data

Results flagged for a closer look

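The Montbéliarde library CNLX23 was the highest of its breed in the share of counted reads that belonged to miR-22-5p, at 0.00239%, and its gap to the next library was past Dixon's 95% critical value. The same library was past this value in the percent of the reads of both arms that were miR-22-5p, at 0.230%. Both measures contain the same 252 reads. In the normalized read count of miR-22-5p and in the log2 arm ratio, CNLX23 was at the end of its breed but not past the critical value. Chance gives such a gap in about 1 of 20 groups, and 22 groups of libraries were examined.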

How the results depend on the processing

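No paired analysis was possible because each library came from a different cow of 1 breed. The log2 fold change of miR-22-3p kept its negative sign and missed the limit under all 20 alternatives (-0.26 to -0.06 with 1 library left out, lowest adjusted p 0.514 in edgeR's quasi-likelihood test), as did that of miR-3600 under all 19. The log2 fold change of miR-22-5p turned positive with DESeq2 (0.0116), with DESeq2 size factors in edgeR (0.00493), with total counts only (0.0236) and with at least 10 counts in at least 5 libraries (0.0110), and ran from -0.16 to 0.11 with 1 library left out. The number of miRNAs called, 2 in edgeR, was 22 with DESeq2, 0 with DESeq2 size factors in edgeR (82 with p of at most 0.05 before adjustment), 1 with total counts only, 0 with the epithelial level as covariate, an alternative chosen after seeing the data (34 before adjustment), and 0 to 6 with 1 library left out; none of these were members. The difference in the share of miR-22-3p kept its sign (-0.273 to -0.0434 percentage points with 1 library left out). That of miR-22-5p was -0.0341 on the log2 scale and ran from -0.000183 to 0.000105 percentage points with 1 library left out. The difference in the log2 arm ratio ran from -0.22 to 0.0371, the positive value arising without CNLX23. Over the internal controls, the difference of miR-22-3p was -0.47 with miR-92a alone (exact permutation p = 0.0130) and 0.27 with miR-191 alone, and ran from -0.29 to -0.00314 with 1 library left out; that of miR-22-5p was 0.41 with miR-191 alone and ran from -0.18 to 0.13 with 1 library left out. The correlation of the arms was -0.26 without the 2 farthest libraries, -0.29 in Montbéliarde cows, and -0.14 to 0.68 with 1 library left out. With the markers' mean on the log2 scale, r turned to 0.0196 for miR-22-3p with endothelium, 0.0536 for miR-22-3p with erythrocytes and 0.10 for miR-22-5p with epithelium; without the 2 farthest libraries the first was 0.23. The cause of these changes was not tested. Depth limits miR-22-5p, whose counts in a library were at most 252.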

Other observations

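Among the 205 miRNAs compared, the one least like miR-22-5p was miR-29a, a repressor of collagen genes, which was noticed after its values were seen. Over the 11 libraries its r with miR-22-5p was -0.89 and its rho -0.82, and without the 2 libraries farthest from the median of miR-22-5p its r was -0.87. Its normalized read count lay between 8136 and 11158, and its log2 fold change between the breeds was -0.01 (SE 0.15, adjusted p = 0.983 in edgeR's quasi-likelihood test). With miR-22-3p, miR-29a had an r of -0.36. The miRNA least like miR-22-3p was miR-6524, with an r of -0.58, a rho of -0.55 and a mean normalized read count of 962. These values are the extremes of many and are given as a description only.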
